A study of Homo sapiens with 4 samples.

Results

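The replication-dependent histone genes encode the linker histone H1 and the core histones H2A, H2B, H3 and H4, and were examined here in LNCaP prostate cancer cells. Members were the genes with the current symbols H1-1 to H1-5 and those named H2AC, H2BC, H3C or H4C with a number, without pseudogenes. They were selected on their measured level, an RPKM of at least 1 in at least 1 of the 4 libraries, where RPKM is the read count normalized for transcript length and sequencing depth. Of 57 such genes in the files, 50 passed, among 14626 genes that passed the same filter out of 19801. The 50 comprised 3 H1, 15 H2A, 13 H2B, 9 H3 and 10 H4 genes. By the reference annotation 36 lie on chromosome 6, 13 on chromosome 1 and 1 on chromosome 12.

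LNCaP is a human prostate cancer cell line that responds to androgen. To ask how Ailanthone (AIL), a plant-derived small molecule, acts on transcription with and without the AR1-651 construct, cells grown in RPMI medium with fetal bovine serum were transfected for 24 h and then left for a further 12 h with or without AIL. The 4 conditions were empty vector and AR1-651, each without and with AIL. There was 1 library per condition, so no difference below has a replicate error, no p-value is given, and a single library decides every value. AIL and AR1-651 were each compared in both backgrounds, which gave 4 comparisons.

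Replication-dependent histone genes are transcribed mainly in S phase, when new DNA has to be packed into nucleosomes, and their mRNAs are degraded when DNA synthesis stops. Most mRNAs end in a poly(A) tail. Histone mRNAs instead end just after a short stem-loop bound by SLBP, where a machinery containing the U7 small nuclear RNA cuts. A library made by oligo(dT) capture therefore tends to under-represent them, and a library made after ribosomal RNA removal does not depend on the tail. Some of these genes also give longer, polyadenylated transcripts, mainly in cells that have left the cycle or differentiate.

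The stem-loop that stands in for the poly(A) tail is shown here because it sets how far these mRNAs can be captured. It was searched in the reference transcripts as a stem of 6 base pairs that begins with GG and ends with CC around a loop of 4 bases that begins with TT, and was found in 27 of the 50 genes, against 0.693% of 206694 transcripts. The reference model of 20 genes holds no sequence beyond the coding part, so the stem-loop could not be looked for there. Of the 30 with longer models, 27 held it. The letters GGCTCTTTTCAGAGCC occurred in 16 genes of the H2A, H2B and H3 classes, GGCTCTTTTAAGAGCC in 3 H2B genes, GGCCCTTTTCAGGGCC in 4 H4 genes, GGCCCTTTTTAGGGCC in 3 H4 genes, and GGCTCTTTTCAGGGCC in H2AC11. Examples from each class with such a sequence follow, 5′ to 3′ as DNA letters from GENCODE release 29 (GRCh38), with the stem and loop in capitals.
H2AC8, chr6:26217410-26217439, plus strand: aaccaaaGGCTCTTTTCAGAGCCacccacc
H2AC18, chr1:149842216-149842245, minus strand: ctcaaaaGGCTCTTTTCAGAGCCacccacg
H2BC5, chr6:26158580-26158609, plus strand: tcccaaaGGCTCTTTTAAGAGCCacgcatg
H2BC4, chr6:26123465-26123494, minus strand: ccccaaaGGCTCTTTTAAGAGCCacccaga
H3C10, chr6:27810509-27810538, plus strand: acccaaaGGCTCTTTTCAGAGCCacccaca
H4C8, chr6:26285124-26285153, minus strand: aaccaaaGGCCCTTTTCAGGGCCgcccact
H4C14, chr1:149833025-149833054, plus strand: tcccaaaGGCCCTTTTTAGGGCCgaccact

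The sources describe the capture of RNA differently. The labels name a kit for ribosomal RNA removal and, in the same text, enrichment on oligo(dT) beads, and the study's supplementary methods describe removal of ribosomal RNA. Which one was used could not be settled here, and it bears on every level below. A different share of S-phase cells and a different amount of histone mRNA per cell cannot be told apart in these bulk libraries.

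Depth was read from the steps in the deposited values. This used 980 to 1184 genes per library with a single listed transcript, short enough and with few enough implied reads for the steps to show. Of their values 32.1 to 35.7% lay within 0.05 of a whole number of reads at a depth of 4800000 to 5650000 reads per library. The median share over the depths tried was 7.71 to 8.49%. A single read in a transcript of 500 nt was then worth 0.354 to 0.417 RPKM, so values near 1 rest on about 3 reads. Luminal prostate markers were high, with KLK3 at 286.61 to 1442.16, FOLH1 at 424.53 to 839.92 and KRT18 at 325.03 to 637.68 RPKM. Of 3 markers of other cells, the leukocyte gene PTPRC and the endothelial gene PECAM1 stayed below 1 in all 4 libraries. The third, the collagen gene COL1A1, was above 1 in each, at 1.75 to 4.59 RPKM. Every direction drawn below from the libraries labelled AR1-651 rests on that label.

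With AIL the histone genes were higher in both backgrounds. The 50 genes together, with pairs of identical values counted once, had a summed RPKM of 750.8 with empty vector and 2556.6 with empty vector + AIL, 3.41 times as much. The library labelled AR1-651 had 859.04 and that with AR1-651 + AIL had 2639.66, 3.07 times as much. Both libraries with AIL were above both without it, and the sums with and without AR1-651 differed by a ratio of 1.14 in the absence of AIL and 1.03 in its presence. As a share of the RPKM of all genes the histone genes held 0.149% with empty vector and 0.477% after AIL, and 0.133% with AR1-651 and 0.466% after AIL. Where a sentence below gives 4 levels, they stand in this order.

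**Figure D1:**
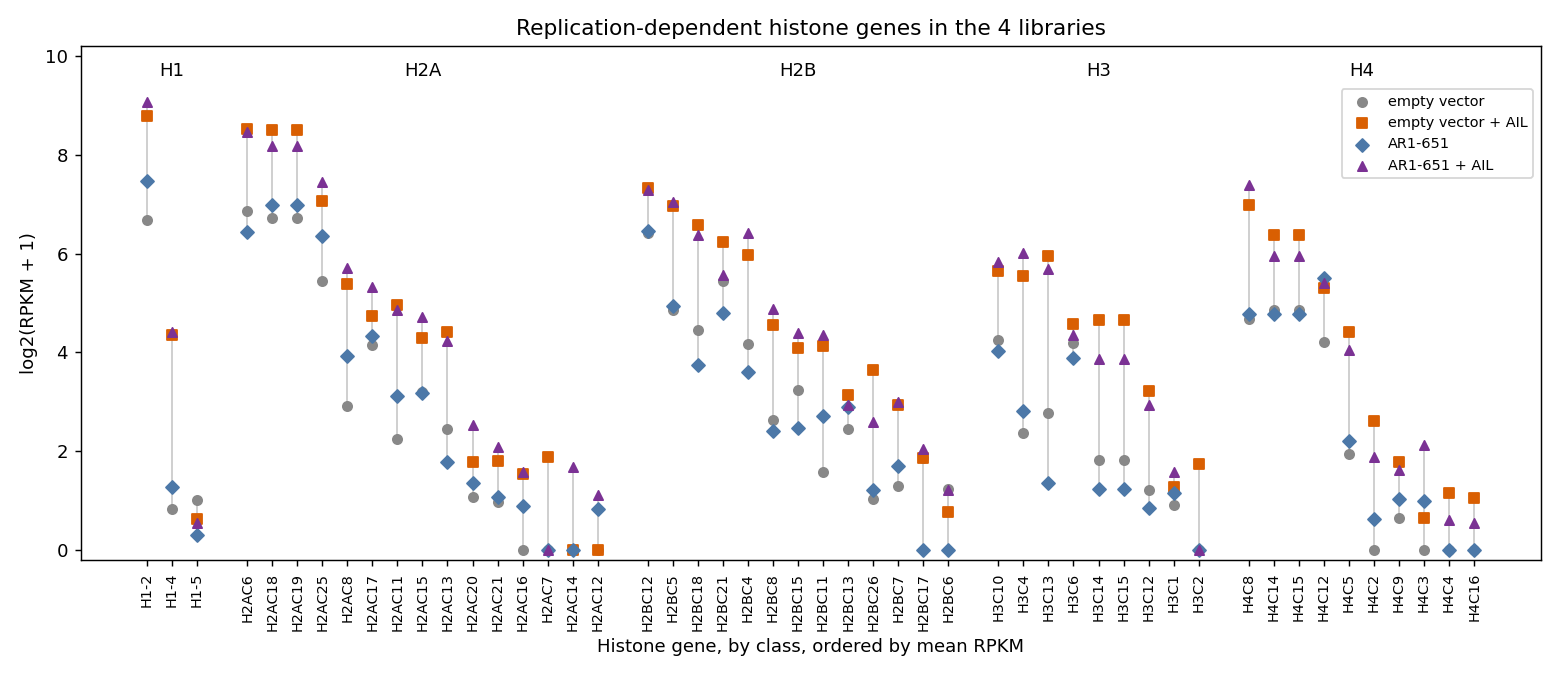
Level of each of the 50 histone genes in the 4 libraries, as log2(RPKM + 1) on the vertical axis, grouped by class and ordered by mean RPKM; 1 point is 1 library and the grey line joins its lowest and highest value. In 41 of the 50 genes the squares and triangles (with AIL) both lie above the circles and diamonds (without AIL), as they do in 29.1% of all genes tested.

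Changes per gene were taken as differences of log2(RPKM + 1), which shrinks the change of weakly expressed genes, and a gene counted as higher or lower when this difference was at least 1, or 2-fold. In empty vector cells 35 of the 50 histone genes were at least 2-fold higher with AIL and 0 lower, with a median difference of 1.63. Among all genes tested 9.53% were higher and 9.03% lower, with a median of -0.02. In cells labelled AR1-651 the count was again 35 higher and 0 lower, with a median of 1.27, against 14.9% higher and 5.74% lower and a median of 0.13 among all genes. The lists of 35 shared 28 genes, and 8 genes were in neither. Among all genes 5.67% were at least 2-fold higher in both backgrounds.

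Because a gene could pass the filter through its AIL library alone, the counts were also made without that choice. All 57 genes of the naming rule gave the same 35 and 35 genes, with medians of 1.51 and 1.20. The 7 genes this adds lay below an RPKM of 1 in every library. On this scale they could not reach 2-fold, so these counts could not change and only the medians could move. Of the 33 genes at an RPKM of at least 1 in all 4 libraries, 26 and 27 were at least 2-fold higher with AIL and 25 were so in both backgrounds. By class these were 1 and 1 of 1 H1 gene, 8 and 9 of 10 H2A, 7 and 8 of 11 H2B, 5 and 5 of 6 H3 and 5 and 4 of 5 H4 genes in empty vector and AR1-651 cells. There were 8 genes that reached an RPKM of 1 only in libraries with AIL and 1 that did so only without it. Just inside the limit lay H1-5 with a highest RPKM of 1.03, H4C16 with 1.08, H2AC12 with 1.18, H4C4 with 1.23 and H2BC6 with 1.36. Just outside lay H1-3 with 0.70, H4C7 with 0.58, H4C1 with 0.51, H2AC4 with 0.46, H2BC3 with 0.39, H3C11 with 0.31 and H1-1 with 0.27.

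**Figure D2:**
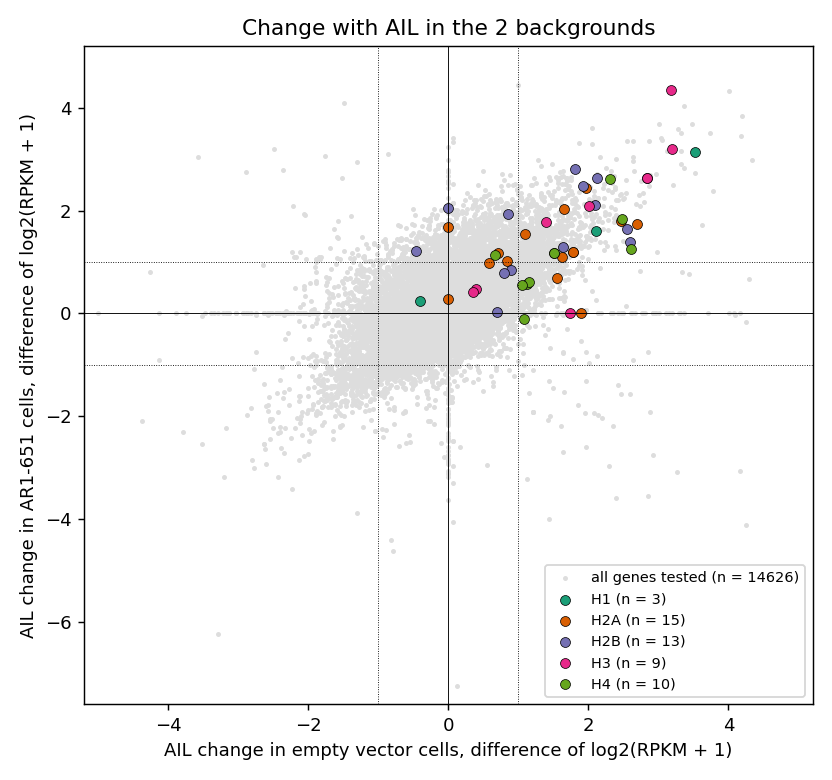
Difference of log2(RPKM + 1) with AIL in empty vector cells (horizontal axis) and in AR1-651 cells (vertical axis) for the histone genes by class, over all 14626 genes tested in grey; dotted lines mark 2-fold. The 28 histone genes raised in both backgrounds lie in the upper right corner and none lies in the lower left.

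The linker histone class consisted almost wholly of H1-2, a linker histone that binds nucleosomes and compacts chromatin. H1-2 had an RPKM of 101.37 with empty vector and 442.28 after AIL, and 176.59 with AR1-651 and 536.69 after AIL, and made up at least 95.7% of the H1 sum in every library. This was the highest mean level of the 50 genes, and both AIL libraries stood above both others, by 2.11 and 1.60 on the log2(RPKM + 1) scale. H1-4 was close to the floor without AIL, at 0.77 with empty vector and 1.42 with AR1-651, which are about 3.1 and 6.1 reads. With AIL it stood at 19.32 and 20.22, about 73.0 and 89.9 reads. Its differences of 3.52 and 3.13 rest on those few reads without AIL. H1-5 stayed between 0.24 and 1.03 in all 4 libraries, at most about 4.2 reads, and showed no common direction.

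Among the H2A genes, which encode the partner of H2B in the nucleosome, 10 of 15 were at least 2-fold higher with AIL in empty vector cells and 11 in AR1-651 cells, with medians of 1.63 and 1.20. H2AC6, which had the highest mean level of its class, had an RPKM of 115.56 with empty vector and 366.02 after AIL, and 85.08 with AR1-651 and 350.65 after AIL. It was higher in both AIL libraries, by 1.65 and 2.03. H2AC18 and H2AC19 carried the same value in each library, 104.15, 360.88, 124.99 and 288.81 RPKM. These genes are near-identical copies on chromosome 1 (0 and 2.91% of their 50-base words were found in no other histone transcript), so their reads cannot be told apart. H2AC25 stood at 42.44, 133.09, 80.33 and 172.84 RPKM, with both AIL libraries higher by 1.63 and 1.10.

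H2AC8 ran from 6.59 with empty vector to 40.93 with empty vector + AIL and from 14.13 with AR1-651 to 51.51 with AR1-651 + AIL. H2AC17 was the H2A gene with an RPKM of at least 1 throughout that moved least with AIL in empty vector cells, at 16.76 and 25.63 RPKM, a difference of 0.58. It stood at 19.11 with AR1-651 and 38.91 with AR1-651 + AIL. H2AC7 was seen in empty vector + AIL alone, at 2.72 RPKM, and H2AC14 in AR1-651 + AIL alone, at 2.20 RPKM, which are about 6.7 and 5.9 reads of a single library.

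The more abundant H2B genes lay on both sides of the 2-fold line. Of the whole class, 7 of 13 were at least 2-fold higher with AIL in empty vector cells and 10 in AR1-651 cells, with medians of 1.64 and 1.65. H2BC12 had an RPKM of 84.74 with empty vector and 158.96 after AIL, and 86.57 with AR1-651 and 155.55 after AIL, so both AIL libraries were higher, by 0.90 and 0.84, short of 2-fold. H2BC21 likewise stood at 42.76, 74.6, 26.64 and 46.33 RPKM, with differences of 0.79 and 0.78. H2BC5 stood at 28.03, 122.89, 29.51 and 130.64 RPKM, higher by 2.09 and 2.11.

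H2BC18 was at 20.86 with empty vector and 94.45 after AIL, and 12.5 with AR1-651 and 82.6 after AIL. H2BC4, which shares a promoter region with H2AC6, was at 16.95, 62.07, 11.17 and 84.72 RPKM, with differences of 1.81 and 2.82 with AIL. H2BC13 moved least among the H2B genes at an RPKM of at least 1 throughout, with 4.45, 7.78, 6.49 and 6.63 RPKM, a difference of 0.69 in empty vector cells and 0.03 in AR1-651 cells. At the low end H2BC17 was at 2.62 with and without AIL in empty vector cells, about 5.9 and 6.2 reads, and at 0 with AR1-651. At this depth a 0 in a single library does not show that the gene was silent.

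H3 genes, whose protein pairs with H4 in the core of the nucleosome, had medians of 2.01 and 2.08 with AIL, the second the highest of any class, with 7 of 9 and 6 of 9 genes at least 2-fold higher. The identical pair H3C14 and H3C15 counts as 2 genes here. H3C2, at 2.34 RPKM (about 5.7 reads) in empty vector + AIL and 0 elsewhere, passed the filter only through that library. Of the 6 H3 genes at an RPKM of at least 1 in all 4 libraries, 5 were at least 2-fold higher in each background, with medians of 2.83 and 2.63. H3C10 had an RPKM of 18.14 with empty vector and 49.45 after AIL, and 15.44 with AR1-651 and 55.54 after AIL. H3C4 stood at 4.15, 45.98, 6.0 and 63.4 RPKM, higher with AIL by 3.19 and 3.20, and its annotated span runs across H2AC7, so reads in the shared stretch cannot be assigned to either with certainty. H3C13 stood at 5.82, 60.71, 1.57 and 50.87 RPKM, with differences of 3.18 and 4.34. The second was the highest of all 50 genes and rests on about 4.0 reads with AR1-651 against 134.8 with AR1-651 + AIL.

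H3C14 and H3C15, a pair with identical values, stood at 2.53, 24.16, 1.37 and 13.67 RPKM, both AIL libraries far above the others. H3C6 was the exception among the H3 genes with higher levels. It stood at 17.24, 22.97, 13.76 and 19.4 RPKM, with differences of only 0.39 and 0.47.

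Of the 10 H4 genes 9 were at least 2-fold higher with AIL in empty vector cells and 6 in AR1-651 cells, with medians of 1.34 and 1.15. H4C2, H4C4 and H4C16 passed the filter only through libraries with AIL, and the last 2 were called in empty vector cells on about 2.4 and 2.1 reads against 0. H4C8 had an RPKM of 24.59 with empty vector and 126.06 after AIL, and 26.27 with AR1-651 and 166.02 after AIL, and held 25.4 to 56.8% of the H4 sum. H4C14 and H4C15, again identical in value, stood at 27.92, 81.54, 26.39 and 60.49 RPKM. H4C12 was different in that it was already high with AR1-651. It had 17.63 RPKM with empty vector and 38.46 after AIL, and 44.68 with AR1-651 and 41.14 after AIL, so the AIL difference was 1.08 in empty vector cells and -0.12 in AR1-651 cells.

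**Figure D3:**
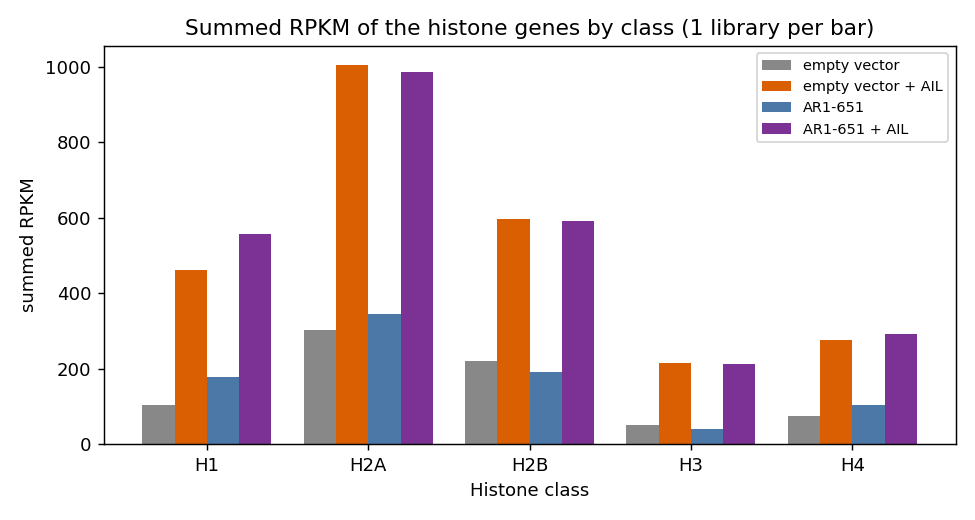
Summed RPKM of the histone genes of each class (vertical axis, from 0) in the 4 libraries, with identical pairs counted once; a bar is a single library and has no error. The AIL bars exceed the others in each class, most in absolute terms for H2A, from 304 to 1005 RPKM in empty vector cells and from 346 to 987 in AR1-651 cells.

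By class, the summed RPKM with AIL relative to no AIL was 4.48 for H1, 3.31 for H2A, 2.71 for H2B, 4.30 for H3 and 3.76 for H4 in empty vector cells. In AR1-651 cells the ratios were 3.13, 2.85, 3.10, 5.26 and 2.82. H1 and H3 had the 2 highest ratios in empty vector cells. In AR1-651 cells H3 was highest, and H1 and H2B were near level at 3.13 and 3.10. The H1 ratio is almost wholly that of H1-2. On chromosome 1, 10 and 12 of 13 genes were at least 2-fold higher with AIL, and on chromosome 6, 24 and 23 of 36. Over the 50 genes the share was 70.0% in each background.

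Few histone genes passed 2-fold with AR1-651. Against empty vector 3 of the 50 were at least 2-fold higher and 3 lower, beside 4.01% higher and 11.6% lower among all genes, and the median difference was 0.05 for the histone genes and -0.30 for all genes. Scaling by median ratios moved the median of all genes to -0.09 and that of the histone genes to 0.27, and 5 of the 50 histone genes changed sign, none of them past 2-fold. Genes for ribosomal proteins took up 31.7% of all RPKM in the library labelled AR1-651 and 21.6% with empty vector, and their part in these differences was not tested. Of the genes past 2-fold, H4C3 (higher) and H2BC17 and H2BC6 (lower) set about 2.2, 6.2 and 3.2 reads against 0. Among genes at an RPKM of at least 1 in all 4 libraries the highest were H4C12 with 1.29 and H2BC11 with 1.14 (1.98 and 5.56 RPKM). H2AC8 followed with 0.995, just short of 2-fold. The lowest were H3C13 with -1.41, H2BC15 with -0.78 (8.51 and 4.53 RPKM) and H2BC18 with -0.70. In the presence of AIL, AR1-651 gave 3 higher and 3 lower, beside 1.46% and 3.53% of all genes, with medians of 0.01 and -0.03. The higher were H2AC14, H2AC12 and H4C3, which set about 5.9, 3.0 and 7.8 reads against 0, 0 and 1.1. Of the lower, H2AC7 and H3C2 set 0 against about 6.7 and 5.7 reads. Among the 33 genes at an RPKM of at least 1 in all 4 libraries, 0 were higher and 1 lower. There the highest of the same set were H2AC20 with 0.74 (2.45 and 4.76 RPKM), H2AC17 with 0.58 and H3C4 with 0.46, and the lowest were H2BC26 with -1.04 (11.43 and 5.03 RPKM), H3C14 and H3C15 with -0.78 and H2BC21 with -0.68.

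**Figure D4:**
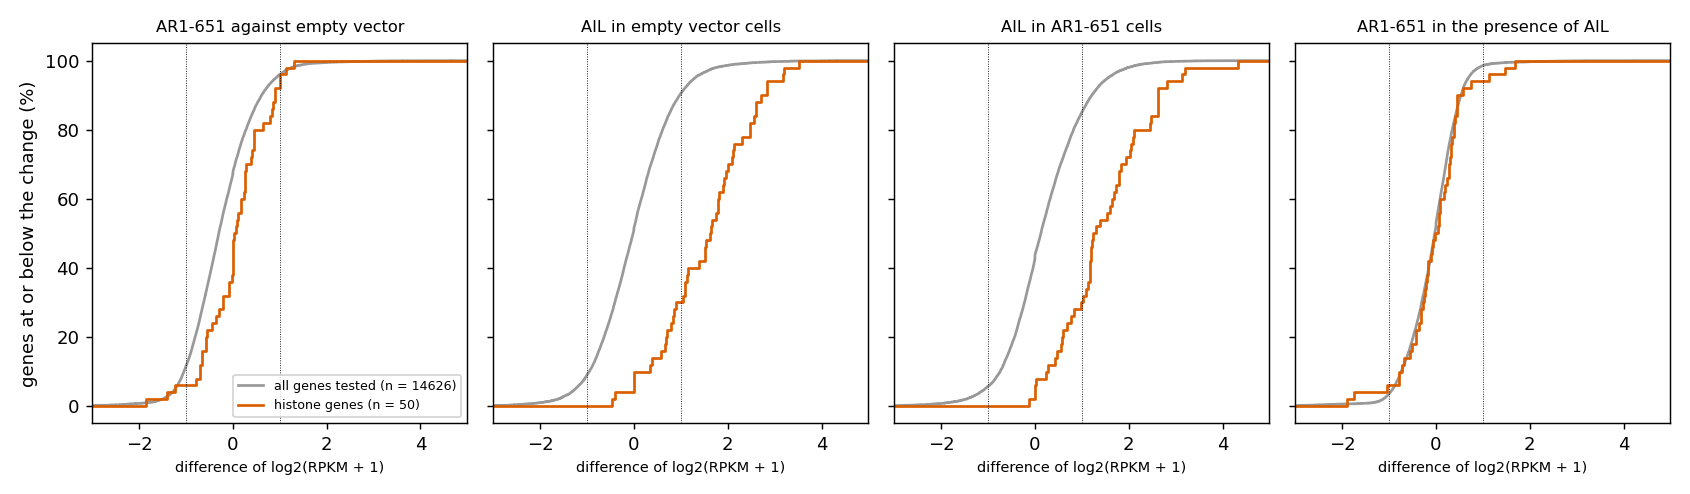
Cumulative share of genes (vertical axis, in %) at or below each difference of log2(RPKM + 1) (horizontal axis) in the 4 comparisons, for the 50 histone genes and all 14626 genes tested; dotted lines mark 2-fold. The curve of the histone genes is shifted to the right with AIL in both backgrounds (medians 1.63 and 1.27), and lies near that of all genes for AR1-651 in the presence of AIL (0.01 and -0.03).

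As the missing poly(A) tail ties these values to the library preparation, genes known also to give polyadenylated transcripts were set apart. They are H1-2, H2AC6, H2BC4, H2BC5, H2BC12 and H2BC21. With AIL 4 of these 6 were at least 2-fold higher in each background, with medians of 1.73 and 1.81. Of the other 44 genes 31 were so in each background, with medians of 1.59 and 1.23. The split is not clean. Reference transcripts of some of these 44 run far past the stem-loop, by 1917 nt in H2BC26 and 1761 nt in H2AC11, and others end near it, with 18 nt in H4C8. The 44 can therefore not be taken as genes without polyadenylated transcripts. Other RNAs without an ordinary poly(A) tail were also read. Of 8 such RNAs, 0 were at least 2-fold higher with AIL in either background, beside 9.53% and 14.9% of all genes. In empty vector cells 3 were lower and in AR1-651 cells 1, beside 9.03% and 5.74% of all genes, with medians of -0.73 and -0.36. RN7SL2, an RNA of the signal recognition particle, had 160.56, 164.41, 126.36 and 161.85 RPKM, and its copy RN7SL1 had 117.0, 112.55, 132.04 and 88.47. The nuclear RNA NEAT1, which also has a short polyadenylated form, fell from 85.53 to 34.52 with AIL in empty vector cells. It was at 32.37 and 31.79 with AR1-651.

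Histone transcripts are short and rich in G and C, with a median length of 506 nt and a GC content of 58.0%, against 2598 nt and 49.6% over all genes tested. The 956 other genes of at most 1000 nt with a GC content of at least 50% had medians of 0.07 and -0.14 with AIL, with 143 and 83 of them at least 2-fold higher. After the trend with length and GC content over all genes was taken off, the medians of the histone genes lay 1.53 above those of all genes in both backgrounds.

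The genes that make, process and read histone mRNA moved less than the mRNAs. Of 22 such factors found, 1 (4.55%) was at least 2-fold higher with AIL in empty vector cells and 5 (22.7%) in AR1-651 cells. For all genes the shares were 9.53% and 14.9% higher and 9.03% and 5.74% lower, to be read beside the lists below too. The factors had medians of 0.11 and 0.67, with 0 lower. Among the 11 that act on the 3′ end the medians were 0.19 and 0.63. LSM10, a protein of the U7 particle, had 49.88 RPKM with empty vector and 89.18 after AIL, and 69.63 with AR1-651 and 84.26 after AIL, and the cap-binding protein NCBP2 had 54.34, 61.95, 52.2 and 81.54. SLBP, the stem-loop binding protein, was at 24.46, 35.59, 16.65 and 30.05 RPKM, higher with AIL by 0.52 and 0.81, below 2-fold. The only one raised 2-fold in both backgrounds was ZNF473, a U7 particle protein named here after its values were seen, with 2.0, 6.63, 1.86 and 5.53 RPKM. The 6 factors of histone transcription had medians of -0.50 and 0.77, and among them YY1 was at 30.82, 46.02, 20.47 and 34.89 RPKM. The 5 factors of translation and decay had medians of 0.11 and 0.82, with LSM1 at 25.95, 40.87, 24.57 and 44.28 RPKM.

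S-phase genes lay around 0. Of 25, 1 was at least 2-fold higher and 1 lower with AIL in each background, with medians of 0.06 and 0.08. The replication clamp PCNA had 60.49 RPKM with empty vector and 70.58 after AIL, and 44.42 with AR1-651 and 61.01 after AIL, and thymidine kinase TK1 had 74.51, 53.67, 54.29 and 40.09. The 14 genes of chromatin assembly, which deposit new histones on DNA, had medians of -0.02 and 0.00, with 0 and 1 higher and 0 lower. The histone-binding RBBP7 had 72.48, 69.14, 129.24 and 94.81 RPKM, and NAP1L4, of a family of nucleosome assembly chaperones, had 60.87, 61.77, 93.79 and 70.2.

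The replacement variants, histones not tied to S phase and made mainly from polyadenylated mRNAs, were mixed. Of 11, 3 were at least 2-fold higher with AIL in empty vector cells and 0 lower, and 2 were higher and 1 lower in AR1-651 cells, with medians of 0.04 and -0.32. H2AZ1 had 588.99, 462.53, 839.51 and 644.71 RPKM. H3-3B, a source of the H3.3 protein, had 159.49, 625.99, 161.04 and 599.51, higher by 1.97 and 1.89. H3-3A, which encodes the same protein, went the other way, with 89.06, 47.49, 115.21 and 23.12 RPKM and differences of -0.89 and -2.27, although it was not among the highest of the list and is named after its values were seen.

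**Figure D5:**
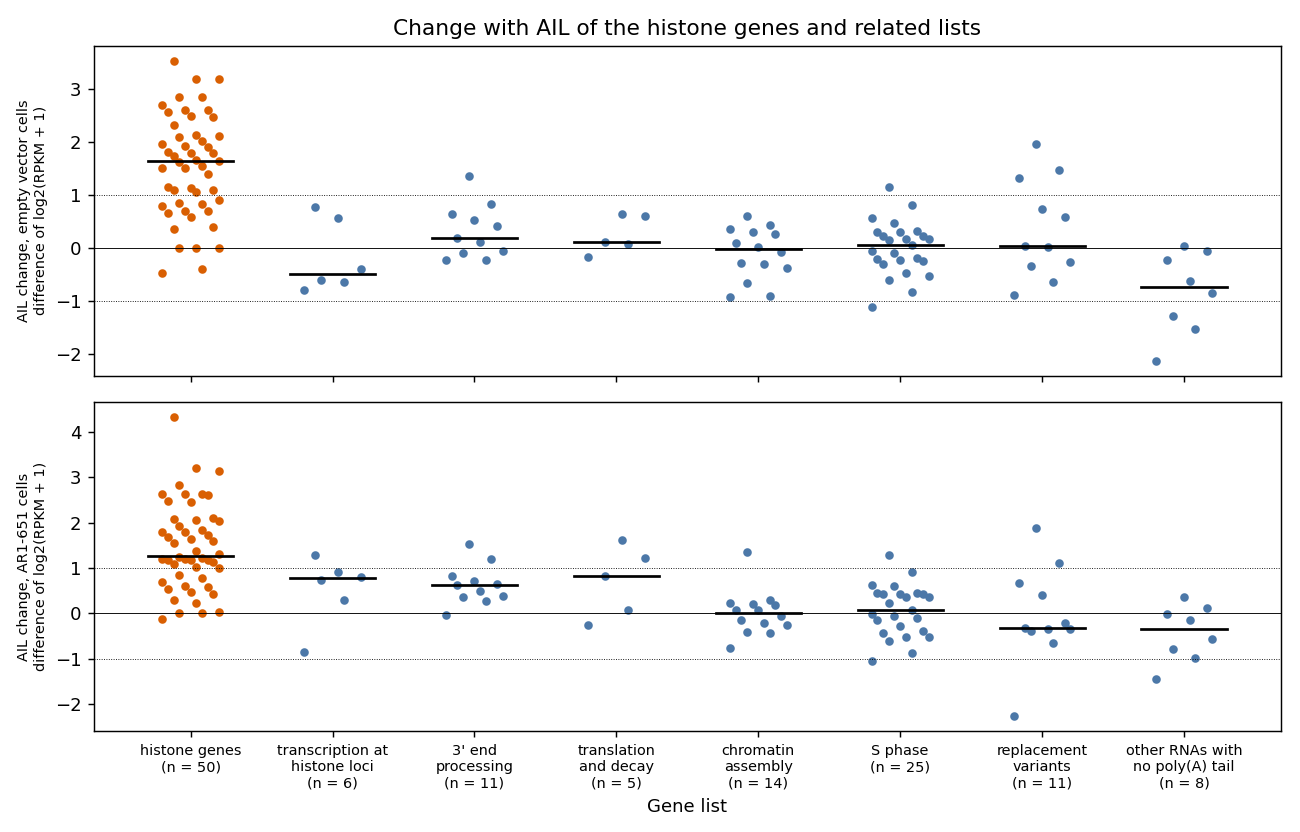
Difference of log2(RPKM + 1) with AIL in empty vector cells (upper panel) and AR1-651 cells (lower panel) for the histone genes and the related lists; a point is a gene, the bar is the median and dotted lines mark 2-fold. The histone genes have the highest median in both panels (1.63 and 1.27), and S phase and chromatin assembly genes lie around 0.

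H2A and H2B genes often lie head to head with a shared promoter region. In the RefSeq promoter table (GRCh38.p14) 9 such pairs had both genes among the 50, with start sites 194 to 248 bases apart. With AIL both genes of a pair were at least 2-fold higher in 5 of 9 pairs in each background. A single gene of the pair was so in 2 pairs in empty vector cells and 4 in AR1-651 cells, and neither was in 2 and 0. Taken singly, 70.0% of the 50 genes were at least 2-fold higher in each background, and a link between partners was not tested. In the pair H2BC11 and H2AC11 both moved, by 2.55 and 2.70 in empty vector cells and by 1.65 and 1.74 in AR1-651 cells. H2BC13 and H2AC13 differed, with 0.69 and 1.96 in empty vector cells and 0.03 and 2.44 in AR1-651 cells. In the pair H2BC21 and H2AC20 the levels lay far apart, with mean RPKM of 47.6 and 2.47.

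Promoter letters are given for 3 genes that turn up above, namely the pair region of H2AC11, H1-4 and H3C13, as the 250 bases before the start site. Windows were found for 47 of the 50 genes and searched on both strands for the octamer ATTTGCAT, the CCAAT box and the TATA box TATAAA, all in capitals below, with overlapping matches run together.
H2AC11, chr6:27132793-27133042, plus strand: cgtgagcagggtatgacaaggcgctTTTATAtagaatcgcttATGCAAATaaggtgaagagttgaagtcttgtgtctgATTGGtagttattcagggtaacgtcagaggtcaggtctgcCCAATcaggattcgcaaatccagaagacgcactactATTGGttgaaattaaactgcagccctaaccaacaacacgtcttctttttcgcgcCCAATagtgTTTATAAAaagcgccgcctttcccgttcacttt
H1-4, chr6:26156079-26156328, plus strand: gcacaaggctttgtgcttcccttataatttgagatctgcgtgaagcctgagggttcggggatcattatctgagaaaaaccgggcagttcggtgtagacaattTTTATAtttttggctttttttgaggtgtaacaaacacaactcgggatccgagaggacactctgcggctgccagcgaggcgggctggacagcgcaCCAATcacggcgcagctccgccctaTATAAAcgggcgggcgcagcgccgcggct
H3C13, chr1:149813694-149813943, minus strand: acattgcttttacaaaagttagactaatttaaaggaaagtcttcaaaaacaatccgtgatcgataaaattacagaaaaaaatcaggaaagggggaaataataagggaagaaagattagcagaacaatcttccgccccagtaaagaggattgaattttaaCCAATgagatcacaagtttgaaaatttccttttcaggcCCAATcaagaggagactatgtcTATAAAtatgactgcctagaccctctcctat

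The octamer was found in 40.4% of the 47 genes, against 2.19% of the 27305 genes in the table, each window running from 250 bases before to 50 after a start. It lay in 9 of 14 H2A and 9 of 13 H2B genes, in 1 of 8 H3 genes and in 0 H1 or H4 genes. Head-to-head partners share much of their window. The H3 gene is H3C4, whose octamer lay only in the window of its second listed start, which is the window of H2AC7. CCAAT was in 83.0% against 39.7% and TATAAA in 32 of the 47 against 3819 of the 27305, and CCAAT was in all H1, H2A, H2B and H3 windows but in 1 of 9 H4 windows. With AIL the 19 genes with the octamer had medians of 1.64 and 1.65 and the 28 without it 1.68 and 1.22. A match in these letters is a description and says nothing of what binds there.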

How the data were processed

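RNA was sequenced from LNCaP cells in 4 conditions with 1 library each. The authors deposited RPKM per gene, rounded to 2 decimals. The submitters' processing notes name BWA 0.7.10-r789 and hg19, and the counting tool is not given in the sources used here. Members and gene lists were chosen with earlier results of these data known.

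From the deposited RPKM values, log2(RPKM + 1) was calculated for genes that reached an RPKM of 1 in any library, and a change was called at 2-fold. Gene identifiers were matched to current symbols for 19703 of 19801 genes. No test was run with 1 library per condition. The genes named with values were the 3 with the highest mean RPKM of each class, those of the polyadenylation list, the 3 with the highest and the 3 with the lowest change in each comparison among genes at an RPKM of at least 1 in all 4 libraries, and those beside the filter limit. Other lists gave their members of highest mean RPKM. SLBP, ZNF473, H3-3A, H2AC7, H2AC11, H2AC13, H2AC14, H2AC25, H2BC17, H3C2 and H4C3 were added after their values were seen. Lists came from textbook knowledge. Transcript length, GC content, 50-base words and stem-loops came from GENCODE release 29 and promoters from RefSeq, both on GRCh38, so no coordinate was used in a calculation of the levels. Some genes of the lists are not reported here by name. RNU7-1 and the basal markers KRT5 and TP63 were not analysed here, and COL1A1 was at 1.75 to 4.59 RPKM.

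Alternatives were a pseudocount of 0.1, median-ratio scaling, scaling without ribosomal protein genes, no filter, an RPKM of at least 5, a threshold of 1.5-fold, a correction for transcript length and GC content, and leaving out the polyadenylation list. A mean RPKM of at least 5, identical pairs counted once and leaving out genes that share most of their words were added after seeing the data. The calculations were tested on simulated data with 200 genes raised 4-fold over 19801 genes, of which 100% were recovered with 0% of the others called, which checks the arithmetic only and says nothing of error with 1 library per condition. Python 3.11.15, NumPy 2.4.6, pandas 2.3.3 and matplotlib 3.10.9 were used.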

Additional observations from a re-analysis of the deposited data

Results flagged for a closer look

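In 3 histone genes the change with AIL had opposite signs in empty vector and AR1-651 cells, and with 1 library per condition none of these differences was tested. H4C12 was higher with AIL in empty vector cells (1.08) and about level in AR1-651 cells (-0.12), a difference of -1.20 between the backgrounds on the log2(RPKM + 1) scale, with 34.6 to 95.1 estimated reads in the 4 libraries. H2BC6 had -0.46 and 1.22, a difference of 1.69, with at most about 3.5 reads in a library. H1-5 had -0.40 and 0.24, a difference of 0.63, with at most about 4.2 reads.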

How the results depend on the processing

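With AIL, counts and medians of the histone genes kept their direction under every alternative run in both backgrounds. The median ran from 1.51 to 1.99 in empty vector cells and from 1.18 to 1.82 in AR1-651 cells, and 0 genes were at least 2-fold lower in any of them. Median-ratio scaling left 29 higher genes in AR1-651 cells in place of 35. The AR1-651 comparisons have few genes past the threshold and moved more, and the cause was not tested. Against empty vector, 8 were higher with a pseudocount of 0.1, 7 with median-ratio scaling and 10 at 1.5-fold, and 8 were lower at 1.5-fold and 1 with an RPKM of at least 5 or a mean of at least 5. In the presence of AIL, 5 were lower with a pseudocount of 0.1, 7 at 1.5-fold, 1 with an RPKM of at least 5 and 0 with a mean of at least 5, and 0 were higher with either of the last 2. The median of that comparison changed sign around 0 (-0.06 to 0.15).

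Without the polyadenylation list the sums fell by its share, to 361.39 with empty vector and 1329.78 after AIL, and 443.48 with AR1-651 and 1335.08 after AIL, for H1 to 1.8, 19.86, 1.66 and 20.68, for H2B to 47.5, 178.69, 36.99 and 174.0, and for H2A to 188.46, 639.11 and 636.49 in the libraries other than AR1-651. The AIL libraries stayed higher in all of these. Of 200 single changes, median-ratio scaling ended 7 calls at 2-fold, added 4 and turned 7 signs, scaling without ribosomal protein genes ended 2, added 1 and turned 3 signs, and a pseudocount of 0.1 added 15. No change past 2-fold before and after turned its sign. With AIL in AR1-651 cells, the calls of H2AC18, H2AC19, H2AC21, H2AC25, H4C14 and H4C15 ended with median-ratio scaling, at 0.88 to 0.98.

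AIL was read within each construct, and no test with the construct as a block was run. At this depth a short gene near an RPKM of 1 rests on about 3 reads. RPKM is a share of each library, and ribosomal protein genes held 31.7% of it with AR1-651 against 21.2 to 24.5% elsewhere. H2AC13, H2AC14, H2AC18, H2AC19, H3C14, H3C15 and H4C14 share most of their 50-base words with other histone transcripts, so their values are uncertain.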
